A study of Mus musculus with 4 samples.

Results

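The Hox genes of the 4 mouse clusters were examined in embryonic stem cells (ESCs) with and without the transcriptional repressor REST. Members were the genes whose symbol is Hoxa, Hoxb, Hoxc or Hoxd followed by a number, and 37 of the 26301 genes in the count table met this rule. Of these, 36 are described, with 10 in HoxA, 10 in HoxB, 9 in HoxC and 7 in HoxD, and every count of members given here is over these 36. RefSeq lists 39 such genes. Hoxd4 and Hoxd11 have rows without a symbol, so they fall outside the rule, and neither row held more than 5 counts in any library. The WT cells were the N6 ESC line and the REST-/- cells the N8 ESC line, in which the Rest gene is disrupted, each sequenced as 2 RNA libraries. The culture medium held serum and LIF. Irradiated embryonic fibroblasts served as feeders, and passages without them, on gelatin, preceded the RNA extraction. Each genotype is thus 1 cell line, so genotype and line cannot be told apart. The authors call the 2 libraries of a line biological replicates.

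Hox genes encode homeodomain transcription factors that give cells their position along the head to tail axis of the embryo. In each cluster the genes with low numbers lie at the end that is used early and in anterior regions, and those with high numbers are used late and in posterior regions and limbs. In ESCs the clusters are classical targets of the Polycomb complexes, which hold developmental regulators at low transcript levels until differentiation. REST, in turn, binds the RE1 element and represses neuronal genes outside the nervous system.

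The libraries held 30953863 and 27061056 counts in WT and 25461270 and 22293966 counts in REST-/- ESCs. A gene was called detected when it had more than 3 counts in both libraries of a genotype. Those 3 counts correspond to 0.0969 and 0.112 CPM (counts relative to the TMM-scaled library size, scaled as edgeR does) in WT and 0.116 and 0.135 CPM in REST-/- libraries, limits that cover counting error only. Rest itself was counted 7908 and 6233 times in WT and 4244 and 3890 times in REST-/- libraries, summed over the whole gene, so it was lower in both REST-/- libraries but still counted. All 15 pluripotency markers were detected in both genotypes, with summed levels between 5509 and 6378 CPM. None was called, but 5 of them (Zfp42, Fgf4, Klf2, Nanog and Klf4) had both REST-/- levels below both WT levels, beside 15.4% of all genes tested. Utf1 alone had both above, beside 16.5% of all genes tested. Of the 15 markers, 7 had a positive log2 fold change (REST-/- relative to WT), and the median was -0.09. Zfp42 was at 705 and 541 CPM in WT and 258 and 226 CPM in REST-/- libraries. Of 18 markers of the feeder fibroblasts, 14 were detected in each genotype and Lum was at 0 in every library. Their summed level was 102 and 97.3 CPM in WT and 213 and 81.9 CPM in REST-/- libraries, so REST-/- replicate 1 stood apart from the other libraries.

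In NCBIM37 (mm9), HoxA spans chr6:52112350-52210874, HoxB chr11:96055630-96229570, HoxC chr15:102751534-102867274 and HoxD chr2:74506367-74603200, from the first to the last member described. The promoters of Hoxd13 and Hoxa13, paralogs that differ in detection, are shown as the 250 bases before the RefSeq start in GRCm38.p6, with each CpG in capitals. Hoxd13 is on the plus strand at chr2:74667975-74668224 and Hoxa13 on the minus strand at chr6:52260881-52261130.
Hoxd13: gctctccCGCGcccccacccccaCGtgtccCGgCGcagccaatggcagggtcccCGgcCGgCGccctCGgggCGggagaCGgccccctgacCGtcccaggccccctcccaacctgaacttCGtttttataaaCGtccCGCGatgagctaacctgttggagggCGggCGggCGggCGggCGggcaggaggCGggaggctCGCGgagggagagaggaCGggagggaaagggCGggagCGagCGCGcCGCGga
Hoxa13: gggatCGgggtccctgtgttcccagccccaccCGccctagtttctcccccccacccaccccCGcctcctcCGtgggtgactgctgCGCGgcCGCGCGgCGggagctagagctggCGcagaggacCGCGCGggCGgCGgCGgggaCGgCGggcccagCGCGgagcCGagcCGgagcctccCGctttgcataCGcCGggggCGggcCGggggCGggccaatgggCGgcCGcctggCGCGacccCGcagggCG

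CpG-rich promoters are the sequence class at which Polycomb is usually found in ESCs. The Hoxd13 promoter held 31 CpG and the Hoxa13 promoter 35. Of the 36 members, 20 had a promoter in the RefSeq table, with a median of 12.5 CpG and a range from 3 to 35, against a median of 6 over 27025 genes. Most of the 20 were HoxA or HoxD genes, Hoxc4 was the only HoxC gene, and Hoxb9 and Hoxc13 were not among them. The ratio of observed to expected CpG reached 0.6 in 11 of the 20 (55.0%) and in 34.5% of all genes in the table. The paralogs shown were both dense in CpG but differed in counts, since Hoxd13 had 48 and 22 counts in WT libraries, whereas Hoxa13 had 1 and 3.

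Most Hox genes did not exceed 3 counts in both libraries of either genotype. In WT ESCs 9 of 36 members (25%) were detected, and in REST-/- ESCs 11 (30.6%). Over all 26301 genes, 61.6% were detected in WT and 60.6% in REST-/- libraries. Among 23 Pax, Dlx and Lhx genes, other developmental regulators, 9 (39.1%) were detected in each genotype. Detection was thus less frequent among Hox genes than over the table as a whole in both genotypes, by count alone. Of the 36 members, 6 were detected in both genotypes, 14 in at least 1 and 22 in neither, and 9 never had more than 3 counts in any library.

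**Figure D1:**
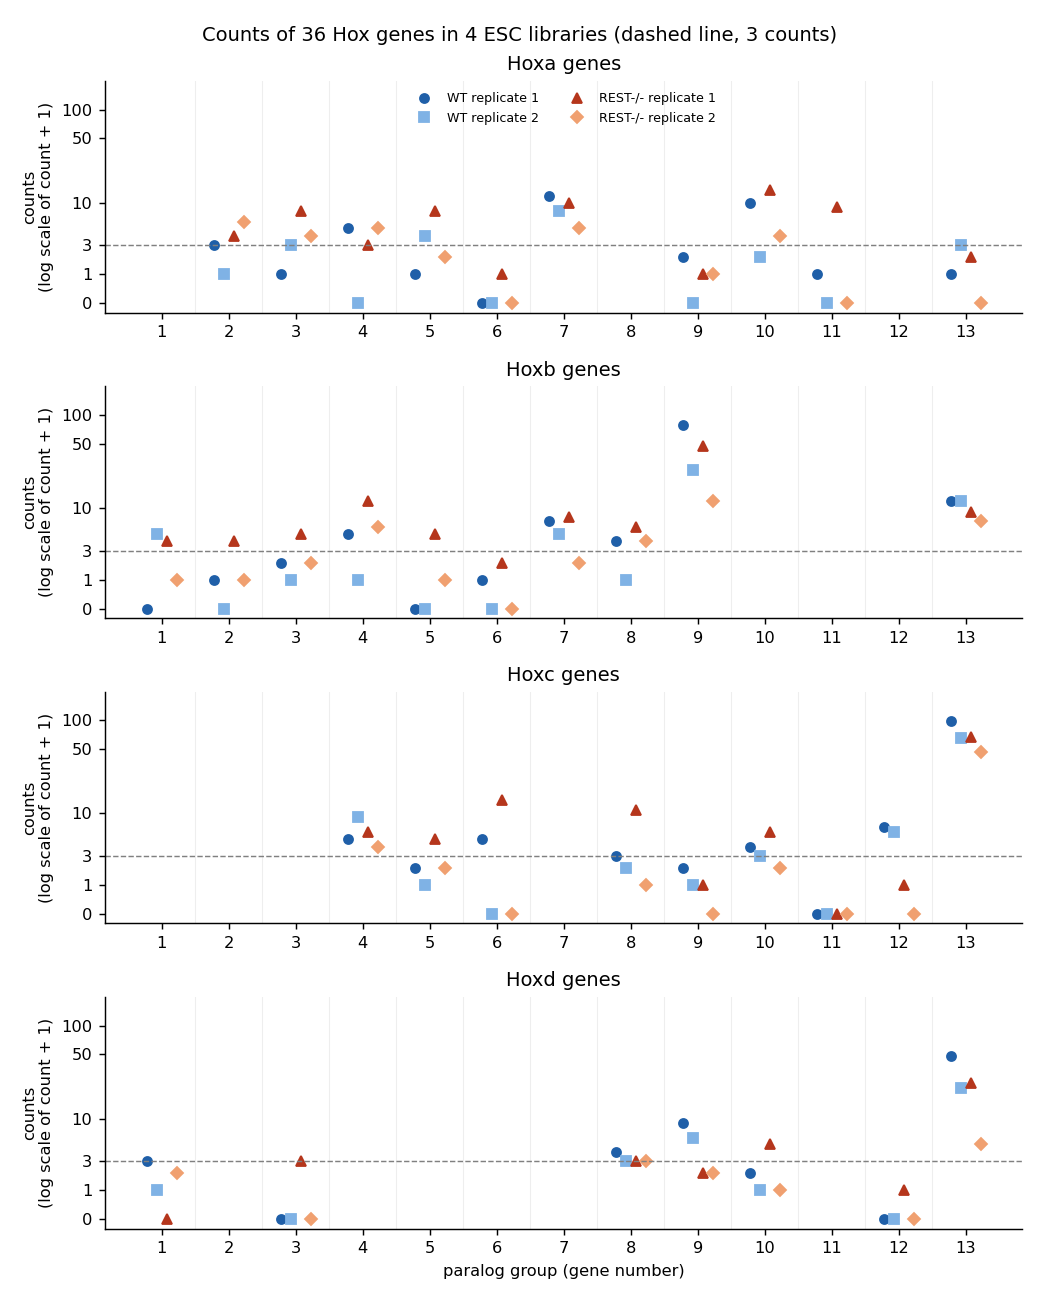
Counts of each of 36 Hox genes in the 4 libraries, by cluster (panels) and paralog group (horizontal axis), on a log scale of count + 1. The dashed line marks 3 counts. Only Hoxb9, Hoxc13 and Hoxd13 among them had more than 14 counts in any library.

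By cluster, 1 of 10 HoxA genes was detected in WT and 4 in REST-/- ESCs. In HoxB, 3 of 10 genes were detected in WT and 4 in REST-/- ESCs. HoxC had 3 of 9 in WT and 2 in REST-/- ESCs, and HoxD 2 of 7 and 1. By position, 0 of 7 anterior genes (groups 1 to 3), 3 of 14 central genes (groups 4 to 8) and 6 of 15 posterior genes (groups 9 to 13) were detected in WT. In REST-/- ESCs these counts were 2, 4 and 5. The differences between genotypes were of 1 to 3 genes near the limit and carry no test. From WT replicate 2 alone 11 members exceeded 3 counts and from WT replicate 1 alone 16, against 12 from REST-/- replicate 2 alone and 23 from REST-/- replicate 1 alone.

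**Figure D2:**
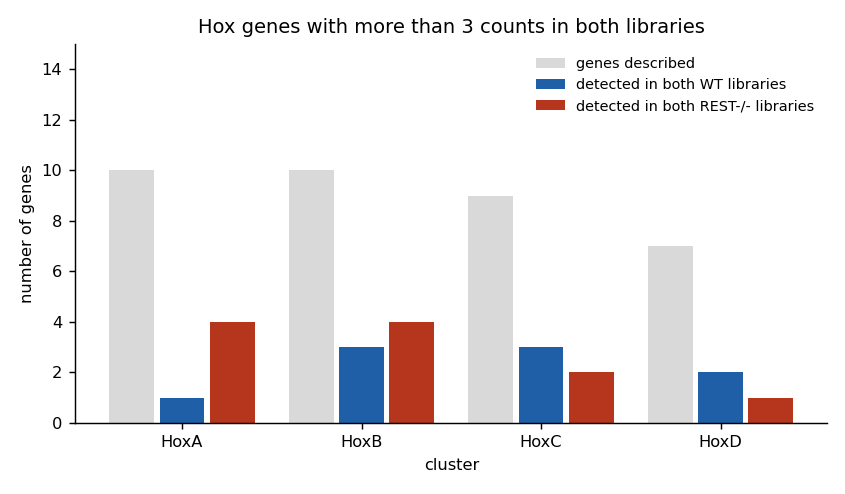
Number of Hox genes per cluster that are described (grey), detected in both WT libraries (blue) and detected in both REST-/- libraries (red), where detected means more than 3 counts. In every cluster fewer than 5 genes were detected in either genotype.

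Much of the signal of these 36 genes came from 3 of them. Hoxb9, Hoxc13 and Hoxd13 together held 66.5% and 59.1% of their counts in the WT libraries. In the REST-/- libraries they held 44.6% and 48.1%. These genes come from different clusters, and all 3 are posterior. The other 33 members reached at most 14 counts in any library.

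Levels of different genes were compared per kilobase of the longest coding transcript. In WT ESCs Hoxc13 was at 1.15 ± 0.211 CPM per kb (SD, n = 2), followed by Hoxb9 at 0.684 ± 0.434 and Hoxd13 at 0.478 ± 0.208 CPM per kb. In REST-/- ESCs Hoxc13 was at 0.949 ± 0.148 CPM per kb (SD, n = 2), then Hoxb9 at 0.459 ± 0.351 and Hoxd13 at 0.240 ± 0.211 CPM per kb. Neighbouring means lay within the sum of their SDs, but the order Hoxc13, Hoxb9, Hoxd13 was the same in each of the 4 libraries, and the values of Hoxc13 and Hoxb9 did not overlap within either genotype. Every other member was at most 0.218 CPM per kb in the mean of each genotype.

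To ask whether loss of REST altered Hox transcripts, members were read from a comparison fitted across all genes, in which 15444 genes passed the filter on low counts. Only 5 of the 36 members passed this filter, namely Hoxa7, Hoxb9, Hoxb13, Hoxc13 and Hoxd13, and the other 31 were too low to be tested. The quasi-likelihood test of edgeR called none of the 5 at an adjusted p of 0.05, and called 0.0583% of all genes tested (9 genes). At an unadjusted p under 0.05, 0 of the 5 were called, against 6.71% of all genes. No member was called by edgeR's exact test with tag-wise dispersion, by the exact test with common dispersion or by DESeq2, which called 1.51%, 2.22% and 1.54% of all genes. All 5 genes had a negative log2 fold change (REST-/- relative to WT), and their median was -0.32 beside -0.0047 over all genes tested. This sign rests on the set tested, since the median was 0.95 over the 35 members fitted without the filter, most of them near 0 counts, and between -0.59 and 0.16 with 1 library left out. With 2 libraries against 2, an exact permutation test of a gene cannot reach p under 0.05.

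**Figure D3:**
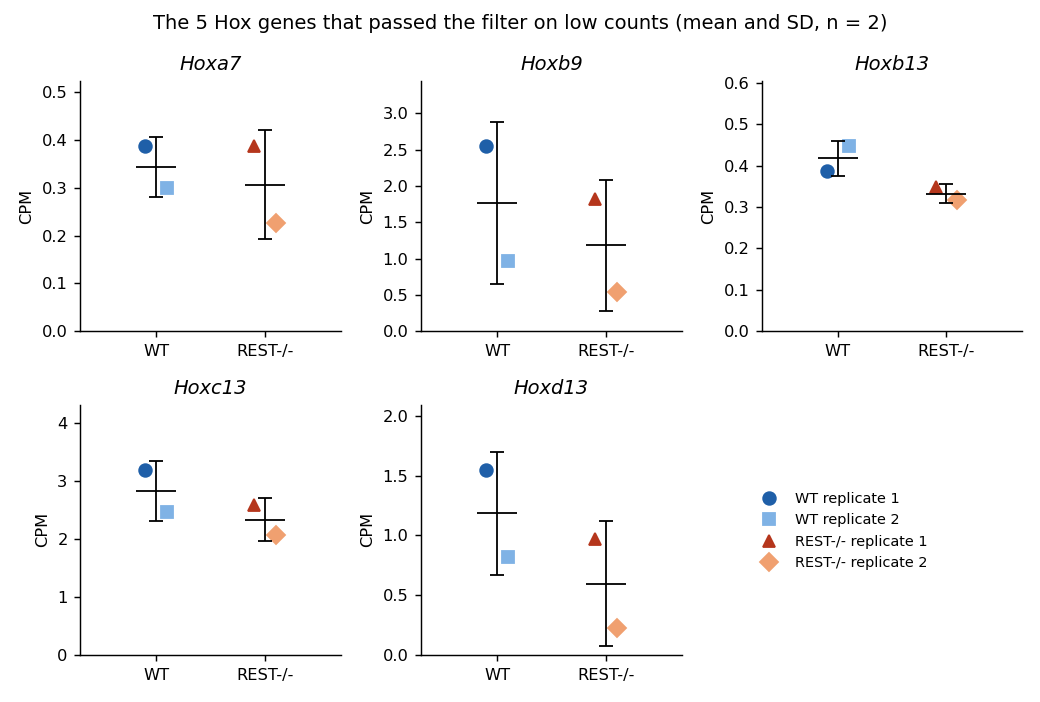
Level (CPM) of the 5 Hox genes that could be tested, in each WT and REST-/- library, each panel with its own vertical axis from 0. Black marks give the mean and SD of 2 libraries. The genotypes do not overlap for Hoxb13 (REST-/- lower) alone, and no gene passed the adjusted threshold. Hoxb13 passed the filter on low counts through its WT libraries alone, which favours that order.

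Hoxc13, a regulator of hair and nail formation, reached 99 and 66 counts in WT as against 67 and 46 counts in REST-/- libraries. The levels overlapped, with 3.20 and 2.46 CPM in WT and 2.59 and 2.08 CPM in REST-/- libraries. The log2 fold change was -0.28 (standard error 0.34). This gene was the most abundant member in WT ESCs per length, and no exon of another gene overlaps it.

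Hoxd13, which shapes the digits, was counted 48 and 22 times in WT and 25 and 5 times in REST-/- libraries. The levels were 1.55 and 0.821 CPM in WT, 0.968 and 0.226 CPM in REST-/- libraries, so the genotypes overlapped. The mean was 1.19 ± 0.516 CPM in WT and 0.597 ± 0.525 CPM in REST-/- libraries (SD, n = 2). The log2 fold change of -0.97 had a standard error of 0.78. Leaving out each library in turn gave values from -2.37 without REST-/- replicate 1 to -0.30 without REST-/- replicate 2.

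Hoxb13, expressed in the tail bud and prostate, drew 12 and 12 counts in WT, against 9 and 7 in REST-/- libraries. Both REST-/- levels (0.348 and 0.316 CPM) were below both WT levels (0.388 and 0.448 CPM), as for 15.4% of all genes tested. Hoxb13 passed the filter on low counts through its WT libraries alone, which favours this order. Without WT replicate 2 it did not pass. None of the 5 members tested had both REST-/- levels above both WT levels, as 16.5% of all genes tested did. The log2 fold change was only -0.32 (standard error 0.46). Hoxa7, a gene of the thoracic region, reached 12 and 8 counts in WT as against 10 and 5 counts in REST-/- libraries, for a log2 fold change of -0.15 ± 0.54 (standard error). The 2 genotypes overlapped, and the sign of the Hoxa7 value turned when WT replicate 1 (0.04) or REST-/- replicate 2 (0.16) was left out. The non-coding gene whose exons overlap Hoxa7 had 0 counts in all libraries.

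Hoxb9, another gene of the thoracic region, had the largest SD in CPM among the 5 members tested, in both genotypes. It was counted 79 and 26 times in WT and 47 and 12 times in REST-/- libraries, or 2.55, 0.971, 1.82 and 0.542 CPM. Both second replicates were thus below both first replicates, whatever the genotype. The log2 fold change was -0.57 (standard error 0.78) and became 0.28 without WT replicate 1, 0.04 without REST-/- replicate 2 and -1.69 at the lowest.

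The genes on both sides of Hoxb9 were read as well. Toward Hoxb7, Hoxb8 had a mean of 0.0833 CPM in WT and 0.206 CPM in REST-/- libraries, and Hoxb7 0.206 and 0.200 CPM. Toward Hoxb13, the genes listed next had lower mean levels in REST-/- than in WT libraries. Mir196a-1, the gene of a miRNA precursor between Hoxb13 and Hoxb9 (chr11:96126478-96126579, NCBIM37), drew 29 and 14 counts in WT, against 18 and 4 in REST-/- libraries. These are reads on the precursor row in an RNA library and no measure of the mature miRNA. Gm53, a predicted gene just upstream of it, reached 140 and 67 counts in WT as against 53 and 21 counts in REST-/- libraries, for a log2 fold change of -1.22 ± 0.55 (standard error). Its REST-/- levels of 2.05 and 0.948 CPM were both below the WT levels of 4.52 and 2.50 CPM. Farther out, Ttll6, a tubulin modifying enzyme, was counted 845 and 308 times in WT and 382 and 139 times in REST-/- libraries. Calcoco2, an autophagy receptor, drew 1795 and 1414 counts in WT, against 731 and 399 in REST-/- libraries, and the log2 fold change of -1.26 ± 0.27 (standard error) had an adjusted p of 0.421 by quasi-likelihood in edgeR. Like Hoxb9, Mir196a-1, Gm53, Ttll6 and Calcoco2 were lower in the second replicate of each genotype. None of these genes passed the threshold in the quasi-likelihood test, which called 0.0583% of all genes tested.

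The mature miR-196 miRNAs, which lie in the clusters and are known to target Hox transcripts, are shown from RefSeq with the seed (bases 2 to 8) in capitals, because the family shares a seed across 3 clusters.
miR-196a-5p: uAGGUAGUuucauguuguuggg
miR-196b-5p: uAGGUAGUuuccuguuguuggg

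The miR-196a-5p sequence is made from both Mir196a-1 in HoxB and Mir196a-2 in HoxC, and miR-196b-5p from Mir196b in HoxA. Mir196a-2 had 0 counts in all 4 libraries and Mir196b 1 count in 1 library. Mir10a, Mir10b and Mir615, the other miRNA genes of the clusters in the table, had 0 counts throughout. All but 1 of the counts on these miRNA genes were thus on Mir196a-1.

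A perfect match to the core of the RE1 element, the REST binding motif, was searched on both strands of NCBIM37 as AGCACC and GGACAG separated by 2 bases. The genome held 951 matches, and 621 of 22367 coding genes (2.78%) had a start within 20 kb of a match. Among the 36 Hox genes 2 did, Hoxb9 at 8466 bp and Hoxb8 at 18914 bp, and both rest on the same match. It is the only match in the 4 clusters with 20 kb on each side, lies on the minus strand within an exon of Gm53, and is shown with 8 bases on each side (chr11:96124291-96124320, minus strand), the matched bases in capitals.
RE1 core in HoxB: gagggaagAGCACCtgGGACAGaaagtatc

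A match is a description of the sequence and no evidence of binding. Hoxb8, the other gene near it, acts in myeloid progenitors and reached 4 and 1 counts in WT as against 6 and 4 counts in REST-/- libraries, too few for a test. HoxA, HoxC and HoxD held no match in the same window.

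Among members that could not be tested, some were detected in 1 genotype only. The anterior genes Hoxa2, which specifies the second pharyngeal arch, and Hoxa3, needed for thymus and parathyroid, were detected in REST-/- ESCs alone. Hoxa2 was counted 3 and 1 times in WT and 4 and 6 times in REST-/- libraries. Hoxa3 drew 1 and 3 counts in WT, against 8 and 4 in REST-/- libraries. Their exons overlap each other. Hoxb4, known from blood progenitors, reached 5 and 1 counts in WT as against 12 and 6 counts in REST-/- libraries. Hoxa10, a gene of the lumbar region and uterus, was counted 10 and 2 times in WT and 14 and 4 times in REST-/- libraries. For Hoxa2, Hoxa3, Hoxb4 and Hoxb8 both REST-/- levels in CPM were above both WT levels, while Hoxa10 overlapped. Detection in REST-/- ESCs alone favours that order. Of all genes tested, a set that does not include these members, 16.5% had it.

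Other members were detected in WT ESCs alone. Hoxc12, a posterior gene beside Hoxc13, drew 7 and 6 counts in WT, against 1 and 0 in REST-/- libraries. Hoxd9, which acts in the limb and lumbar region, reached 9 and 6 counts in WT as against 2 and 2 counts in REST-/- libraries. For both genes the REST-/- levels were below the WT levels, an order that detection in WT alone favours. Of all genes tested, a set that does not include Hoxc12 or Hoxd9, 15.4% had it. Hoxb7 was counted 7 and 5 times in WT and 8 and 2 times in REST-/- libraries, and its levels overlapped. Hoxc4, a gene of the neck region, was detected in both genotypes, with 5 and 9 counts in WT, 6 and 4 in REST-/- libraries. Which genotype such a gene is called in rests on a few reads, and no fold change is given for them.

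The remaining 22 members were not detected in either genotype. Hoxc11 had 0 counts in all 4 libraries, which allows up to 0.0969 to 0.135 CPM per library. The other undetected members ranged from 0 to 14 counts, and the highest value among them was that of Hoxc6 in REST-/- replicate 1. Hoxb2, Hoxb3, Hoxb5 and Hoxc5, with at most 5 counts in any library, had both REST-/- levels above both WT levels. No undetected member had the opposite order. Of all genes tested, a set without these members, 16.5% had both above and 15.4% both below.

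Counts of the low members were highest in REST-/- replicate 1. Summed over the 33 members other than Hoxb9, Hoxc13 and Hoxd13, the level was 3.68 and 2.95 CPM in WT and 6.70 and 3.07 CPM in REST-/- libraries. REST-/- replicate 2 thus lay within the range of the WT libraries and REST-/- replicate 1 above it. Of 24 members with at least 10 counts in total, 12 (50%) were highest in REST-/- replicate 1, against 24.4% of 17454 genes with as many counts. Chosen after their values were seen, Hoxc6 drew 5 and 0 counts in WT, against 14 and 0 in REST-/- libraries, Hoxc8 had 3, 2, 11 and 1 in the same order, and Hoxa11 had 1, 0, 9 and 0. These genes act in the thoracic region (Hoxc6 and Hoxc8) and the forearm (Hoxa11).

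The same library had the highest summed level of feeder fibroblast markers. Of the 17 markers with any counts, 13 were highest in REST-/- replicate 1 and 4 in WT replicate 2 (Dcn, Fbln1, Loxl1 and Thy1). Fbln1, a matrix protein, was at 40.7 and 51.1 CPM in WT and 33.6 and 36.9 CPM in REST-/- libraries. Beside the sum of 213 CPM given above, Col1a1, which encodes collagen of connective tissue, reached 365 and 172 counts in WT as against 1191 and 182 counts in REST-/- libraries. Postn, also among the 13, a fibroblast matrix protein, was counted 19 and 2 times in WT and 87 and 5 times in REST-/- libraries. Prrx1, a mesenchymal transcription factor, drew 12 and 2 counts in WT, against 51 and 3 in REST-/- libraries. Embryonic fibroblasts are known to express Hox genes according to the body region they come from, and the part of feeder RNA in the Hox counts of this library was not tested. In a bulk sample, more cells of a type and more RNA per cell cannot be told apart.

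**Figure D4:**
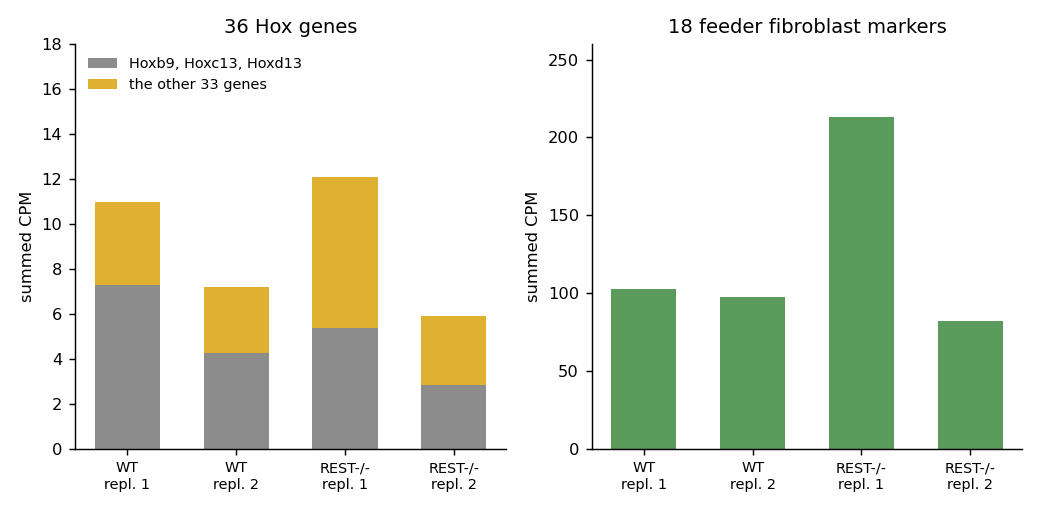
Left, summed level (CPM) of the 36 Hox genes in each library, split into Hoxb9, Hoxc13 and Hoxd13 (grey) and the other 33 members (yellow). Right, summed level (CPM) of the 18 feeder fibroblast markers in the same libraries. REST-/- replicate 1 had the highest value for the other 33 members (6.70 CPM) and for the markers (213 CPM).

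Summed by cluster, the 10 HoxA genes were at 1.16 and 0.784 CPM in WT and 2.32 and 1.22 CPM in REST-/- libraries. Both REST-/- sums were above both WT sums, and the difference was mostly in REST-/- replicate 1. HoxB summed to 3.59 and 1.90 CPM in WT and 3.95 and 1.63 CPM in REST-/- libraries, HoxC to 4.10 and 3.29 against 4.30 and 2.48 CPM, and HoxD to 2.13 and 1.23 against 1.51 and 0.587 CPM. In HoxB, HoxC and HoxD the genotypes overlapped.

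Regulators and partners of the Hox genes were examined as lists. For genes other than the members, called and the adjusted threshold refer to the quasi-likelihood test alone, here and elsewhere. Their outcomes by the other methods, some of which called more genes, are not given. Of 6 caudal and ParaHox genes, homeobox relatives of the Hox clusters, 4 could be tested. All 4 had a positive log2 fold change with both REST-/- levels above both WT levels, their median was 1.60, and 3 had an unadjusted p under 0.05, beside 16.5% and 6.71% of all genes tested, but none passed the adjusted threshold. The caudal genes are known activators of central and posterior Hox genes. Cdx1 reached 102 and 42 counts in WT as against 191 and 150 counts in REST-/- libraries, with a log2 fold change of 1.54 ± 0.44 (standard error) and an adjusted p of 0.631 by quasi-likelihood in edgeR. Cdx2 was counted 27 and 24 times in WT and 98 and 41 times in REST-/- libraries, and Cdx4 had 21 and 17 against 44 and 17. Gsx1, a ParaHox gene of the forebrain, drew 19 and 5 counts in WT, against 96 and 32 in REST-/- libraries, with a log2 fold change of 2.66 ± 0.79 (standard error). Cdx2, Cdx4 and Gsx1 were highest in REST-/- replicate 1, the library with the highest summed feeder markers, and so was Cdx1. Gsx2 and Pdx1 were too low to be tested, and Gsx2 was counted 4 and 5 times in WT and 2 and 0 times in REST-/- libraries.

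**Figure D5:**
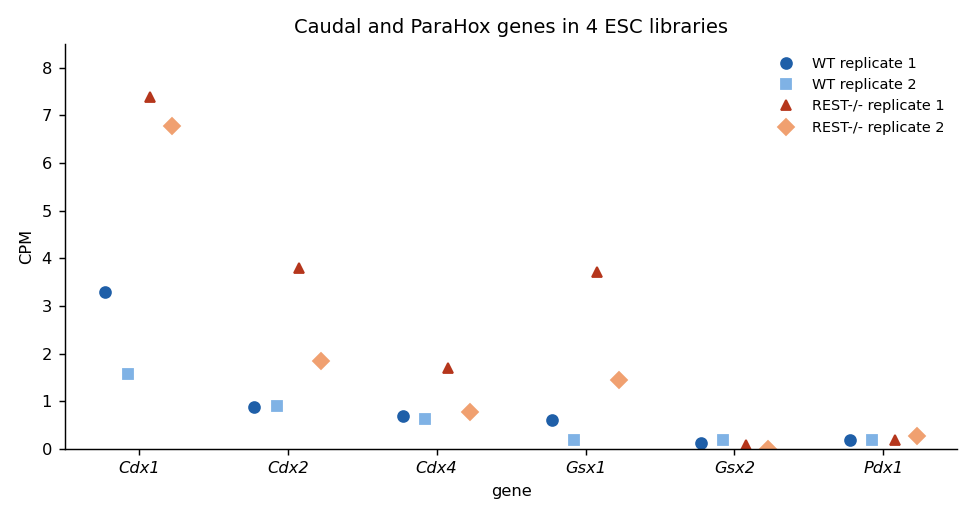
Level (CPM) of the caudal genes Cdx1, Cdx2 and Cdx4 and the ParaHox genes Gsx1, Gsx2 and Pdx1 in the 4 libraries. For Cdx1, Cdx2, Cdx4 and Gsx1 both REST-/- libraries lie above both WT libraries, and none of these passed the adjusted threshold.

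Cofactors of the Hox proteins were present in ESCs. All 8 Pbx, Meis and Pknox genes examined, whose proteins bind DNA together with Hox proteins, were detected in both genotypes and none was called. Meis1 reached 43 and 43 counts in WT as against 105 and 47 counts in REST-/- libraries, for a log2 fold change of 1.05 ± 0.45 (standard error). The median log2 fold change of the 8 was 0.17.

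All 11 genes for Polycomb repressive complex 2 and its accessory proteins were detected, and none was called. Their median log2 fold change was -0.10. Ezh2, the main methyltransferase of the complex in ESCs, drew 6377 and 5079 counts in WT, against 4799 and 4220 in REST-/- libraries, for a log2 fold change of -0.07 ± 0.12 (standard error). Phf19, an accessory protein, had the lowest value in the list, with 1290 and 1425 counts in WT, 731 and 685 in REST-/- libraries and a log2 fold change of -0.68 ± 0.19 (standard error), at an adjusted p of 0.619 by quasi-likelihood in edgeR. All 12 activators, which include the trithorax methyltransferases and the receptors and carriers of retinoic acid, were detected in both genotypes, 11 were tested and none was called, with a median of 0.13. Rara, a retinoic acid receptor, was at 0.07 ± 0.14 (standard error) on the scale of log2 fold change, and Cyp26a1, which degrades retinoic acid, reached 46 and 18 counts in WT as against 47 and 29 counts in REST-/- libraries.

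Most genes beside the clusters were well above the Hox genes. Of 15 flanking genes found in the table, all were detected in WT and 14 in REST-/- ESCs, none was called, and their median log2 fold change was -0.07. Next to HoxA, Skap2 was counted 1288 and 1185 times in WT and 1154 and 1161 times in REST-/- libraries. Next to HoxD, Mtx2 drew 1215 and 949 counts in WT, against 1106 and 810 in REST-/- libraries. None of the 36 Hox genes had more than 99 counts in a library. Evx1, the even-skipped homologue at the posterior end of HoxA, reached 23 and 3 counts in WT as against 28 and 8 counts in REST-/- libraries, and Evx2 at the end of HoxD had 0 counts throughout. Of 11 non-coding genes of the clusters, 4 were found, among them Hotair with 0 counts in all libraries, and none had more than 3 counts in any library.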

How the data were processed

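RNA of 2 WT and 2 REST-/- ESC libraries was measured by RNA-seq. The authors aligned reads with Subread, summarised them per gene with featureCounts and deposited the counts, whole numbers per Entrez gene with no normalization. The submitters' processing notes name mm9, and the strand setting and annotation version are not given in the sources used here. Rows without a gene identifier (368, with no values) were left out.

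Counts were fitted in R 4.3.3 with edgeR 4.0.16 (TMM, filterByExpr, quasi-likelihood test without covariates, prior count 0.125, Benjamini-Hochberg adjustment over the 15444 genes tested, threshold 0.05). The test was checked on simulated counts without a replicate effect, in which only well counted genes were changed. That check does not cover genes with as few counts as most members. Alternatives were scaling by RLE, by upper quartile or by library size, other filters, edgeR's exact tests, DESeq2 1.42.0, a prior count of 2, the replicate number as a block, other detection limits and each library left out. Positions and transcript lengths came from GENCODE M1 on NCBIM37, and promoters and miRNAs from RefSeq GRCm38.p6 (Python 3.11.15, pandas 2.3.3, numpy 2.4.6, matplotlib 3.10.9).

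The members and lists were chosen with earlier results of these data known. Values in every library are given for members detected in at least 1 genotype, and other members by ranges. Hoxc6, Hoxc8, Hoxa11 and the genes named from the lists as examples were chosen after their values were seen. Of the 37 genes that met the rule, 1 is not reported here, nor is 1 gene of the cofactor list, and both stayed in the fit over all genes. Exons of 15 of the 36 members overlap those of another gene. Among them 4 overlap another of the 36, and Hoxd3 overlaps Hoxd4, which is outside the rule. P-values measure the spread between 2 biological replicates of 1 line per genotype, as the authors name them. ChIP and other data of the study were not analysed here.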

Additional observations from a re-analysis of the deposited data

How the results depend on the processing

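The number of genes called over the whole table depended on the method. It was 53 without a filter on low counts, 3 with at least 10 counts in every library, 233 with the tag-wise exact test, 343 with the common-dispersion exact test, 238 with DESeq2 and 60 to 113 with 1 library left out. Hox genes tested numbered 35 without the filter, 2 with at least 10 counts in every library and 5 to 9 with 1 library left out, since the filter sets who is tested. No Hox gene was called in any of these, but with 1 library left out the spread came from the other genotype alone, and the lone library was assumed to vary alike. Their median log2 fold change was 0.95 without the filter, -0.42 with at least 10 counts in every library and -0.27 with a prior count of 2, and ranged from -0.59 to 0.16 with 1 library left out, over sets of different genes. Hox genes detected numbered 24 in WT and 25 in REST-/- ESCs above 0 counts, and 4 and 2 at 10 counts or more. With 1 library per genotype, 11 and 16 were detected in WT and 12 and 23 in REST-/- ESCs. Hoxb9 turned to 0.28 without WT replicate 1 and 0.04 without REST-/- replicate 2, and Hoxa7 to 0.04 and 0.16. Their lowest values, without REST-/- replicate 1, were -1.69 and -0.59. Hoxb13, Hoxc13 and Hoxd13 kept their sign in all alternatives in which they were tested.

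With the replicate number as a block, 2621 genes (17.0%) were called, 1308 higher and 1313 lower, and none of the 5 Hox genes tested. Deviations of same-numbered libraries from their genotype means correlated at 0.807 across genes, so the replicates of the 2 lines differed in a like way. The sources state no link beyond the number, there are only 2 pairs, and the main test did not use the pairing. At this depth a level under 0.135 CPM cannot be told from 0 in the shallowest library. The filter on low counts left 31 of the 36 members without a test.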

Other observations

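Markers of lineages that use Hox genes were also read from the table. Of 10 primitive streak and mesoderm markers, 9 were detected in WT and 8 in REST-/- ESCs, 8 were tested and none was called. Of the 8, 4 had both REST-/- levels above both WT levels and 3 had both below, beside 16.5% and 15.4% of all genes tested, and the median log2 fold change was 0.20. Kdr, a receptor of vascular progenitors, was at -0.94, Wnt3a at -0.52 and Tbx6 at -0.41. Within this list T, the brachyury factor of the streak, drew 35 and 12 counts in WT, against 386 and 118 in REST-/- libraries, and Wnt3, a signal that induces the streak, drew 88 and 84, against 304 and 165. Their adjusted p was 0.405 and 0.402 in edgeR's quasi-likelihood test, and both were highest in REST-/- replicate 1. Of 12 primitive endoderm markers all were detected and tested, 11 had a positive log2 fold change, beside 7591 of all 15444 genes, 8 had both REST-/- levels above both WT levels, beside 16.5% of all genes tested, the median was 0.69 and none was called. The exception was Hnf4a, a nuclear receptor of endoderm and liver, which was counted 115 and 128 times in WT and 19 and 17 times in REST-/- libraries, with a log2 fold change of -2.49 and an adjusted p of 0.191 in edgeR's quasi-likelihood test. Of 10 neural progenitor markers 7 were detected in each genotype and none was called.

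Among the Pax genes, Pax5, a regulator of B cell and midbrain development, was counted 2 and 2 times in WT and 36 and 35 times in REST-/- libraries. With WT at the detection limit no fold is given, and its adjusted p was 0.119 in edgeR's quasi-likelihood test. T, Wnt3, Kdr, Wnt3a, Tbx6, Hnf4a and Pax5 were named after their values were seen.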
